A study of Mus musculus with 8 samples.

Results

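The comparison described here is that of embryonic stem cells (ESC) without B-type lamins with wild-type ESC. It rests on 4 of the 8 two-colour Agilent arrays of the series, 2 per genotype, chosen by their titles and all on 1 slide. The lamin B null cells lack both Lmnb1 and Lmnb2, the genes of the B-type lamins. The lines came from 3.5 dpc blastocysts of an intercross of mice heterozygous for both genes, on a mixed background of C57BL/6, 129S4Sv/Jae and 129S6/SvEvTac. Cells of both genotypes were male, had been expanded on feeder cells and later weaned off them, and carried the randomly integrated transgene pCAG-Cdx2ER-IP under puromycin selection. That transgene makes a fusion of Cdx2, a transcription factor that drives trophectoderm fate, which is inactive until tamoxifen is given, and the ESC were kept without tamoxifen. The labels name 2 independent lines per genotype but not which array held which line, so p-values measure the spread between arrays, which may be of lines or technical. Each array compared the RNA of 1 sample (green dye) with a common reference (red dye) mixed from 2 parts of a pool of 11 mouse cell lines and 1 part of 129 ES cell RNA. The values below are log2 ratios of sample over reference unless another scale is named. The other 4 arrays held trophectoderm cells (TE) derived from the same lines by 2 days of tamoxifen followed by 6 days in TS medium, and enter only as values set beside those of the ESC.

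Lamins are intermediate filament proteins that form a meshwork, the nuclear lamina, under the inner nuclear membrane. Most cell types hold A-type lamins from Lmna and B-type lamins from Lmnb1 and Lmnb2, while ESC hold mainly the B type. Chromatin at the lamina is largely silent, and because of this the lamina is often discussed as a place where genes are kept off. The study asked what ESC express when B-type lamins are missing. With that background, the arrays allow 3 questions: which probes differed between genotypes, whether differences favoured silent or active genes, and how large a general shift the data leave room for.

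The probes carry no gene names here, so probes stand in for genes throughout and the levels of pluripotency, lineage or feeder cell markers were not analysed. Loss of the deleted genes was not checked on these arrays, and whether some of the lowered probes described below report Lmnb1 or Lmnb2 themselves was not tested. To show what the identifiers stand for, the sequences of 3 probes that lead the results are given, all of 60 bases: the probe with the largest rise among those detected on all 4 arrays (Z00017768-1), the one with the largest rise from background (Z00076280-1) and the one with the largest fall to background (Z00070209-1).
Z00017768-1: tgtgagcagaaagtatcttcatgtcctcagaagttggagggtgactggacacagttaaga
Z00076280-1: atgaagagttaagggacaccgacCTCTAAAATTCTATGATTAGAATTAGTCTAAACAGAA
Z00070209-1: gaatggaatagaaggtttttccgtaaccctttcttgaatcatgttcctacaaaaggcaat
Capitals mark a stretch of 37 bases, positions 24 to 60 of the probe from its 5′ end, that also stands in the first bases of Gm46468, a long noncoding RNA gene, at chr14:6666134-6666170 on the plus strand (RefSeq, GRCm38.p6). The bases before it do not match exactly, so the probe was not assigned to that gene. It was the 1 probe of the 48 described below that shared 20 or more bases with a RefSeq promoter window or miRNA hairpin. No pair among the 48 shared a stretch longer than 12 bases, and none shared 20 bases with any other probe of the array, so no repeated probe was counted more than once among them. Different probes may still report the same gene.

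Few probes were called by genotype alone, and those that were differed by large factors. With 2 arrays per genotype, small differences could hardly pass the adjusted p threshold, so these sizes partly follow from it. Of 24503 tested probes, 48 passed an adjusted p of 0.05 in limma with genotype as the only term, which is 0.196% of those tested. The count was 18 probes higher in lamin B null ESC (0.0735%) and 30 lower (0.122%). Of these, 10 of the higher and 24 of the lower probes were well above background on all 4 arrays. The others entered the test only through the genotype in which they read higher. When only probes detected on all 4 arrays were tested, limma called 10 of 19559. In these bulk samples, fewer cells that express a gene and less of its RNA per cell cannot be told apart. Each of the 48 differed at least 2-fold, and 9 of the higher and 17 of the lower probes differed at least 4-fold. The median size was 1.84 on the log2 scale for the higher probes and 2.11 for the lower ones. Before adjustment, 1925 probes had a p under 0.05. The median G and C content of the probes was 39.2% in the higher and 41.7% in the lower set, against 45% over all tested probes.

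Among probes well above background on all 4 arrays, the largest rise was that of Z00017768-1. Its log2 ratio was 0.83 and 0.87 in the lamin B null arrays and -2.24 and -2.12 in the wild-type arrays. The ratio thus crossed from below to above the reference, and the gap between genotypes was far wider than that between replicates. Selection by p on these arrays favours such gaps, here and in the called probes below. The difference was 3.03 (SE 0.095, 8.20-fold), with an adjusted p of 0.00643 in limma. Z00071747-1 followed with 2.83 and 2.75 in lamin B null and 0.03 and -0.04 in wild type. In the wild type it was at the level of the reference, and it rose by 2.80 (SE 0.094, adjusted p of 0.00711 in limma).

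Z00013141-1 and Z00031835-1 rose about as much as each other, by 2.08 (SE 0.16) and 2.06 (SE 0.14). Z00013141-1 had ratios of 0.58 and 0.44 in lamin B null against -1.37 and -1.76 in wild type. Z00031835-1 had 2.06 and 1.73 against -0.23 and -0.10. On neither probe did the genotypes overlap, which selection by p favours. The other 6 called rises with detection on all 4 arrays were smaller, between 1.11 and 1.38, and included Z00035378-1, Z00028704-1, Z00035652-1 and Z00056397-1. The remaining pair, Z00074661-1 and Z00076650-1, had nearly the same ratios on every array. Z00074661-1 read -2.45 and -2.45 in lamin B null and -3.57 and -3.55 in wild type, and Z00076650-1 read -2.43 and -2.39 against -3.59 and -3.53. Both lay well below the reference in either genotype.

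Falls reached further down than rises reached up among probes detected on all 4 arrays. The largest was that of Z00056538-1, with -3.34 and -2.90 in lamin B null and 0.46 and 0.49 in wild type, a difference of -3.60 (SE 0.17, adjusted p of 0.0143 in limma). It was also one of the brightest called probes, with a log2 sample signal of 14.8 and 14.5 in the wild-type arrays and 11.0 and 11.2 in the lamin B null arrays. In lamin B null ESC its signal therefore fell 12.1-fold relative to the reference and still stood clear of background.

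Z00032719-1 read -1.06 and -1.06 in lamin B null and 1.97 and 2.26 in wild type, a difference of -3.17 (SE 0.13). Z00059237-1 fell by 3.00 (SE 0.16), from 1.18 and 1.03 in wild type to -2.10 and -1.70. Z00031212-1 fell by 2.81 (SE 0.11), from 2.04 and 2.12 to -0.83 and -0.63. These 3 probes were above the reference in wild type and below it in lamin B null on every array. A further group started near the level of the reference in wild type and dropped far below it. Z00075211-1 fell from -0.23 and 0.02 to -3.85 and -3.12, Z00006024-1 from -0.08 and 0.16 to -3.23 and -2.81, and Z00055511-1 from -0.15 and 0.13 to -3.19 and -2.77. In each of them replicate 2 was above replicate 1 in both genotypes.

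Z00070082-1 fell by 2.90 (SE 0.090), from 0.19 and 0.25 to -2.70 and -2.66, and had the smallest adjusted p among the falls named here (0.00643 in limma). Z00035722-1 fell by 2.98 (SE 0.11). The brightest called probe was Z00056200-1, with a log2 sample signal of 15.7 and 15.6 in wild type and 12.2 and 13.2 in lamin B null. Its ratio fell by 2.60 (SE 0.17) and it stayed well above background on both lamin B null arrays. Z00074465-1, another bright probe, fell by 1.40 (SE 0.11), from a mean of 1.21 in wild type to -0.19 in lamin B null.

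**Figure D1:**
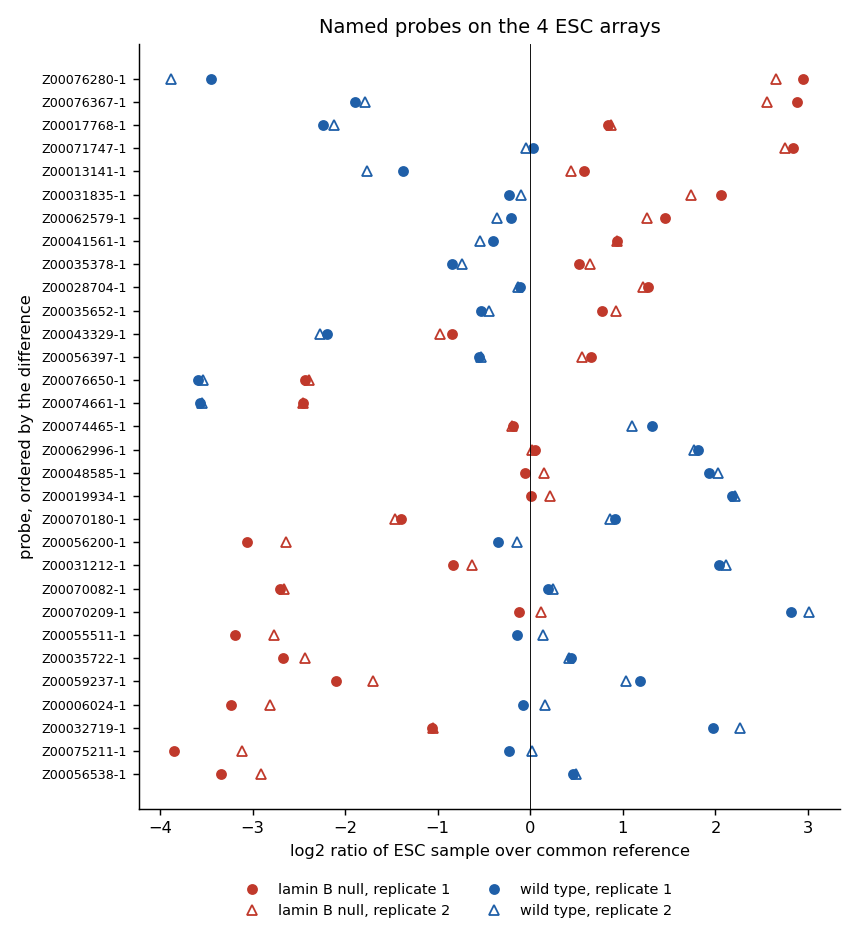
Log2 ratio of sample over common reference (horizontal axis) of the 31 called probes named by rule, 1 row per probe, ordered by the difference between genotypes. Red points are the 2 lamin B null ESC arrays and blue points the 2 wild-type ESC arrays, with filled circles for replicate 1 and open triangles for replicate 2. On every row the red and blue points lie apart, with genotype means 1.11 to 6.47 from each other. The rows are of probes called by p on these arrays, which favours such gaps.

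The threshold itself separated probes that looked alike. The last called probe by p was Z00056397-1, at 0.65 and 0.55 in lamin B null and -0.56 and -0.54 in wild type, a difference of 1.15 (SE 0.093) with an adjusted p of 0.0443 in limma. The first probe not called was Z00063211-1, at 0.77 and 0.59 against -0.58 and -0.62, with a larger difference of 1.28 (SE 0.11) and an adjusted p of 0.0505 in limma. With a threshold of 0.10 the count was 81 probes, 31 higher and 50 lower.

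The number of calls changed with each array left out. Such a fit leaves 1 array in a genotype, which is then assumed to vary like the pair of the other genotype. Replicates differed more in lamin B null, with an SD of 0.303 across probes, than in wild type, with 0.241. Without wild-type replicate 1 the fit called 1 probe, and without wild-type replicate 2 it called 0, while 898 and 1042 probes had a p under 0.05 before adjustment. Without lamin B null replicate 1 it called 64 probes and without replicate 2 it called 138. In all 4 of these fits each of the 48 kept its sign and differed at least 2-fold. The scanner software's own processed signals gave 0 calls in limma (1874 probes at an unadjusted p under 0.05), again with all 48 differing at least 2-fold in the same direction. The authors' deposited table held 27 of the 48 and also gave 0 calls (1197 probes at an unadjusted p under 0.05). Those 27 kept their sign and differed at least 2-fold. All of these fits reuse the arrays on which the 48 were chosen, so the kept signs and sizes are no independent support. Chip position on the slide went with genotype, lamin B null at positions 1 and 2 and wild type at 3 and 4, so position and genotype cannot be told apart.

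Arrays with the same replicate number deviated together. The difference between replicates 1 and 2 in lamin B null ESC correlated with that in wild-type ESC at r = 0.67 across the 24503 probes, which share arrays and are not independent. Of the sum of squares over these probes, genotype took 43.9%, replicate number 46.4% and the part shared by neither 9.73%. Probe Z00025402-1, picked out after its values were seen, shows the pattern at its largest: it read 0.04 and 1.84 on the replicate 1 arrays of lamin B null and wild type, and -3.59 and -5.05 on the replicate 2 arrays. In all, 46 probes differed at least 2-fold between replicates 1 and 2 in both genotypes in the same direction, and 0 in opposite directions. The sources used here do not say what the number marks.

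With the replicate number as a block, 1159 probes passed the adjusted p of 0.05 in limma (4.73% of those tested), 448 higher (1.83%) and 711 lower (2.9%) in lamin B null ESC. All 48 probes above were among them. The 1111 additional calls were mostly small: 613 of them differed less than 1.5-fold, 400 between 1.5-fold and 2-fold, and 98 at least 2-fold. Their median size was 0.55 on the log2 scale, or 1.47-fold. The split between directions moved with the centring, from 61.3% lower after loess to 77.6% lower of 1850 calls when arrays were centred on the median alone. With the processed signals the blocked fit called 0 probes (3777 at an unadjusted p under 0.05). The block leaves 1 residual degree of freedom per probe, against 2 without it, before the spread is pooled over probes.

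Taken pair by pair, the genotype difference of replicate 1 correlated with that of replicate 2 at r = 0.64 across probes, and 65.5% of the tested probes had the same sign in both. A difference of at least 2-fold was seen in 240 probes in pair 1 (78 higher, 162 lower) and in 163 in pair 2 (73 higher, 90 lower). In both pairs it was seen in 46 higher and 58 lower probes. In 65 probes the difference was at least 2-fold in pair 1 and under 0.5 on the log2 scale in pair 2, 56 of them lower in lamin B null. The reverse held for 15 probes. For comparison, replicates of one genotype differed at least 2-fold from each other in 278 probes in lamin B null and in 85 in wild type.

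**Figure D2:**
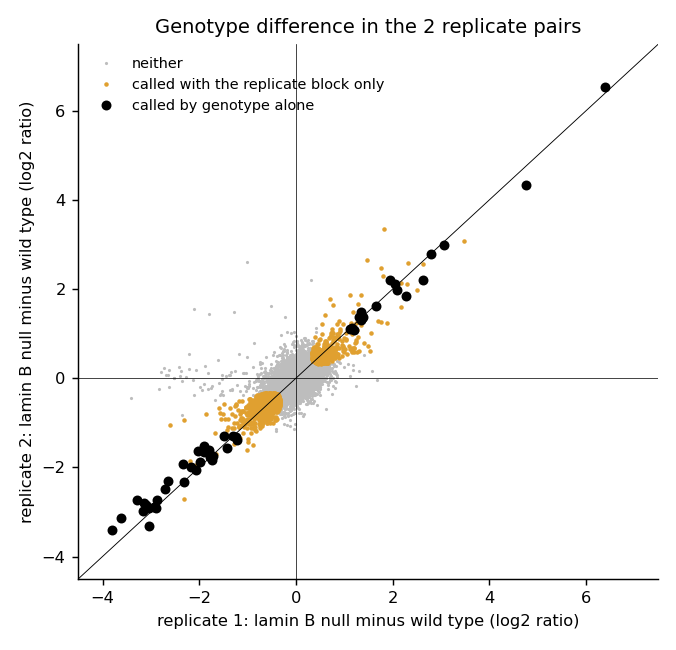
Lamin B null minus wild type (log2 ratio) in replicate pair 1 (horizontal axis) against replicate pair 2 (vertical axis), 1 point per tested probe. Black points are the 48 probes called by genotype alone, which lie along the line of equal values; orange points were called only with the replicate number as a block, and grey points by neither fit. Probes spread to the left along the horizontal zero line were lower in lamin B null in pair 1 alone.

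Over all tested probes, the 48 included, most differences between genotypes were small. The median difference over the tested probes was 0.0045 and the range from the 5th to the 95th percentile was -0.33 to 0.29. At least 2-fold differences were seen in 62 probes that were higher and 109 that were lower in lamin B null, together 0.698% of those tested. Of these 171 probes 123 were not called by genotype alone, among them Z00027410-1 with a difference of 3.28 and Z00055038-1 with 3.05, both picked out after their values were seen. Z00055038-1 read 3.47 and 2.27 in lamin B null and 0.39 and -0.75 in wild type, so its replicates spread widely within each genotype (adjusted p of 0.287 in limma). At least 1.5-fold differences were seen in 202 higher and 421 lower probes. The arrays also bounded the sizes that could have been missed. For 94.8% of the tested probes the 95% interval of the difference lay within 2-fold in either direction, and for 77.8% within 1.5-fold. With the replicate block these shares were 98.5% and 92.7%. An interval wholly beyond 2-fold was found for 26 higher and 35 lower probes, 16 of them not called by genotype alone. With the processed signals, which lack the offset, the share within 2-fold was 80.3% without the block.

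With the offset added in the background correction, differences between genotypes were somewhat smaller among the dimmest and the brightest probes than in between. The tested probes were ranked by mean sample signal over the 4 ESC arrays and cut into 5 bins of 4900 or 4901 probes. From the dimmest to the brightest bin, the SD of the genotype difference was 0.200, 0.274, 0.292, 0.244 and 0.186. The SD of the difference between the lamin B null replicates followed the same course, at 0.211, 0.331, 0.350, 0.328 and 0.272. That between the wild-type replicates was 0.213, 0.258, 0.299, 0.221 and 0.199. The genotype difference is one of means and the others are of single arrays, so the 3 series compare in shape and not in height. The bins were not run on the processed signals, which lack the offset. With those signals Z00043329-1 and Z00062996-1, of the dimmest bin, differed by 3.09 and -4.11 rather than 1.33 and -1.76. Z00056538-1, of the brightest bin, differed by -3.51 rather than -3.60. Whether the dimmest bin would keep its smaller SD without the offset was thus not tested.

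In these ratios with the offset, probes past 2-fold were most frequent in the second-dimmest bin and rarest in the brightest. Their share was 0.428%, 1.14%, 0.898%, 0.816% and 0.204% from dim to bright. By genotype means, lower probes outnumbered higher ones in every bin. The counts were 12 against 9 in the dimmest, 36 against 20, 26 against 18 and 28 against 12 in the middle ones, and 7 against 3 in the brightest. Where both replicate pairs had to reach 2-fold, they were 8 against 7, 21 against 13, 15 against 16, 10 against 8 and 4 against 2. Calls by genotype alone were 6, 15, 16, 8 and 3 per bin in the same order, and no probe of the brightest bin was called higher. The blocked fit called 2.86%, 5.84%, 6.55%, 5.59% and 2.82% of the bins. Loess runs along the mean intensity of both channels and holds each array's median near 0 there, which limits any trend in the median. By sample signal, the median ratios of the 4 ESC arrays in the brightest bin were 0.0997 to 0.108. The median difference was 0.025 in the dimmest and -0.0049 in the brightest bin. The gap between these bins was 0.030, against a spread of that gap between arrays of 0.020 (pooled SD), and it was 0.120 when arrays were centred on the median.

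**Figure D3:**
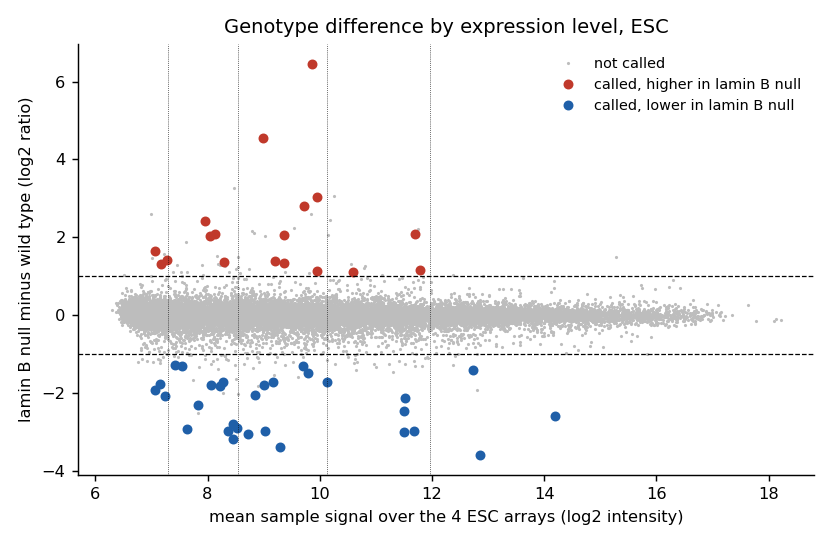
Genotype difference (lamin B null minus wild type, log2 ratio, vertical axis) against mean sample signal over the 4 ESC arrays (log2 intensity, horizontal axis) of the 24503 tested probes. Red and blue points are the 18 and 30 called probes, dashed lines mark 2-fold and dotted lines the borders of the 5 bins. Loess, run along the mean intensity of both channels, limits any trend of the cloud with level, and 45 of the 48 called probes lie in the 4 dimmer bins.

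**Figure D4:**
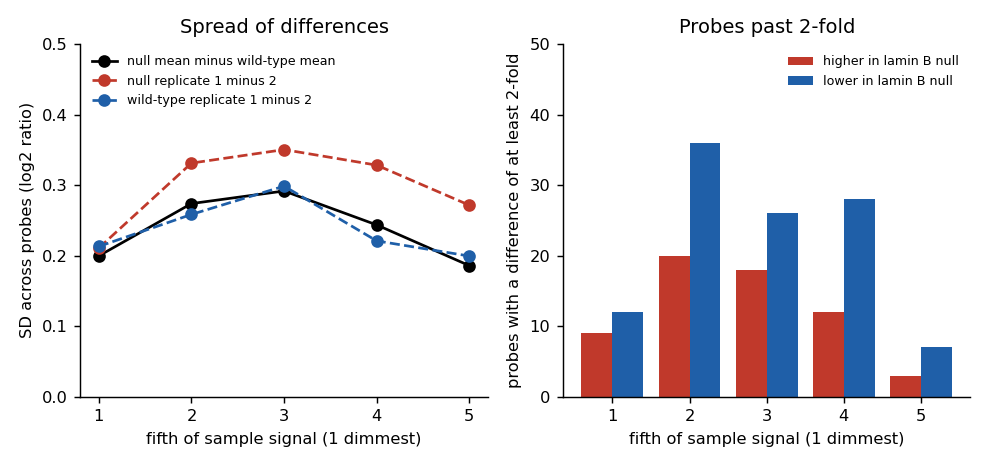
Left, SD across probes (log2 ratio, with the offset) of the genotype difference (black) and of the differences between replicates of a genotype (red, blue). The SD is given in 5 bins of sample signal from dim to bright, and all 3 series peak in the middle bin. Right, number of probes with a genotype difference of at least 2-fold per bin, with lower probes (blue) outnumbering higher ones (red) in each.

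A gene silent in wild-type ESC and active in lamin B null ESC would take its probe from background to detection. By the scanner's flag for a spot well above background, 1326 probes were off on both wild-type arrays and on in both lamin B null arrays, and 21 went the other way. The flag, however, moved in the reference channel too, which held the same RNA on every array: there 2727 probes passed from off to on and 8 from on to off. Of the 1326 probes, 554 were also switched on in the reference channel. The flag was set in the sample channel for 61.9% and 60.5% of the probes on the lamin B null arrays and for 47.1% and 56.9% on the wild-type arrays. In the reference channel it was set for 67.1% and 66.9% against 54.1% and 58.6%. Negative control spots spread more on the wild-type arrays, with an SD of 17.6 and 11.8 intensity units against 5.46 and 8.23.

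**Figure D5:**
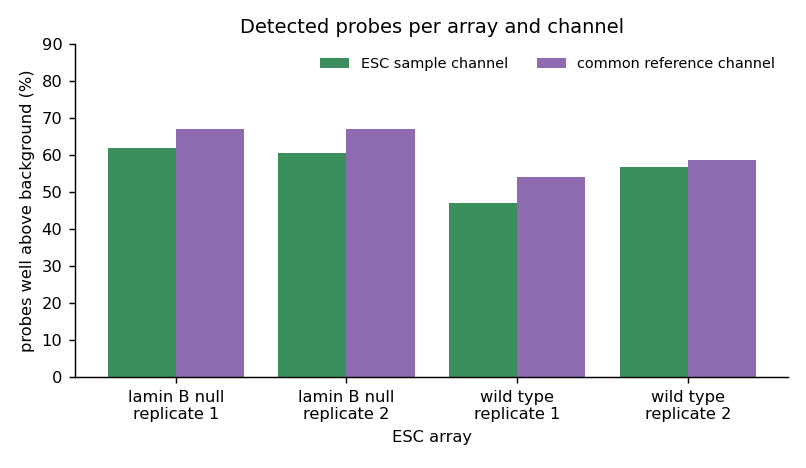
Share of the 42006 probes flagged as well above background (percent, vertical axis) on each ESC array, in the sample channel (green) and in the common reference channel (purple). In both channels the share is lower on the wild-type arrays than on the lamin B null arrays, although the reference RNA was the same.

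The ratios of the 1326 probes moved little. Their median difference was 0.083, with quartiles of -0.010 and 0.18, and 363 of them were lower in lamin B null. A size could be set as a bound in the sample channel. It was the brighter genotype over the higher of each dim array's own value and its lowest signal well above background. This bound does not use the ratio to the reference and can exceed the fold difference in ratio. That bound reached 2-fold for 10 of the 1326 probes and 4-fold for 3. Of the 21 probes in the other direction, 19 had a ratio on all 4 arrays, with a median difference of -0.84. The bound reached 2-fold for 12 of them and 4-fold for 3. Differences in ratio among the 12 ran from -2.91 (Z00070209-1) to only -0.18 (Z00026955-1) on the log2 scale. Calls by genotype alone numbered 5 in each direction, and with the block 52 on and 14 off, beside 0.196% and 4.73% of all tested probes. These probes passed the filter only through the genotype in which they were detected, so their calls are given as counts and support no switch.

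The clearest switch on was Z00076280-1. Its log2 sample signal was 6.91 and 6.29 in the wild-type arrays, not well above background, and 13.2 and 13.1 in the lamin B null arrays, at least 78.9-fold higher. Its ratio to the reference was 2.94 and 2.65 against -3.45 and -3.88. Z00076367-1 passed from 6.55 and 6.57 to 11.6 and 11.2 in sample signal, at least 23.6-fold higher in that channel. Its ratios were 2.88 and 2.55 against -1.89 and -1.78, a difference of 4.55 or 23.5-fold. Next by this bound came Z00027410-1, which was not called by genotype alone and is named here after its values were seen. Its sample signal was 6.80 and 6.54 in wild type and 10.8 and 9.78 in lamin B null, at least 10.8-fold higher. Among the other called probes, Z00062579-1 was at least 2.34-fold, Z00041561-1 at least 2.04-fold and Z00043329-1 at least 2.03-fold higher, all 3 near the 2-fold mark, and 4 further uncalled probes had bounds of 2.28-fold to 3.63-fold.

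The clearest switch off was Z00070209-1, with a sample signal of 9.40 and 9.01 in wild type and 5.93 and 6.17 in lamin B null, at least 7.65-fold lower. Its ratio was 2.81 and 3.01 in wild type. Z00070180-1 was at least 4.58-fold, Z00019934-1 at least 4.37-fold, Z00048585-1 at least 3.70-fold and Z00062996-1 at least 3.36-fold lower. In lamin B null ESC none of these 5 probes was well above background, so the values there are bounds.

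A shift shared by all RNAs would not show in the values above, since loess sets the middle of each array to 0 by construction. Before normalization, the median log2 ratio over tested probes was -0.54 and -0.53 on the lamin B null arrays and -0.52 and -0.36 on the wild-type arrays. The difference of the genotype means was -0.098, with a two-sided exact permutation p of 0.333, which is the smallest that 2 arrays against 2 can give. The value rested on wild-type replicate 2, without which it was -0.013, and it was -0.19 without wild-type replicate 1. In the sample channel alone the median difference was -0.31 on the log2 scale, and in the reference channel, which held the same RNA, it was -0.19. The sources used here do not give the amount of sample RNA labelled per array, so these values concern the ratio, not the RNA content per cell. Over the 4 pairings of a lamin B null with a wild-type array the median differed by -0.18 to -0.013, with a pooled SD of the array medians within genotypes of 0.081. With 2 arrays per genotype the data set no firm limit on a general shift.

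In TE cells made from the same lines, on arrays that played no part in choosing the probes, most of the 48 differed in the same direction. As in ESC, the lamin B null TE arrays lay at slide positions 1 and 2 and the wild-type ones at 3 and 4. Position and genotype thus cannot be told apart in TE either. For the wild-type TE arrays the labels conflict: title and genotype, which were followed, name the wild type, but a knockout is entered under genetic modification. Of the 18 higher probes 16 had the same sign in TE and 9 differed at least 2-fold, with a median of 1.05. Of the 29 lower probes with values on all TE arrays 27 had the same sign and 16 differed at least 2-fold, with a median of -1.35. Over all tested probes with TE values the median was 0.011 and 0.854% differed at least 2-fold. Z00076280-1 was higher by 3.51 in TE and Z00071747-1 by 2.57, while Z00017768-1, the largest rise with detection on all ESC arrays, differed by 0.06. Z00031212-1, which fell by 2.81 in ESC, differed by -0.02 in TE. Of the probes called with the block, 310 of 447 higher and 389 of 710 lower ones had the same sign in TE. The share of same signs over all tested probes is not given here, so the sign counts lack that comparison. These TE differences were not tested.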

How the data were processed

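The authors' scanner output came from Agilent Feature Extraction 9.5.1.1, per the file headers. The deposited scanner files hold mean and local background intensity per spot on a linear scale, processed signals, a log10 ratio of red over green, and flags of 0 or 1 that give a fraction over the spots of a probe. A deposited table holds values on a log10 scale; the sources used here do not say how it was made. It followed the scanner ratios with the sample over the reference counted as positive.

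Here, normexp correction (offset 50) and loess within each array, with control and outlier spots given no weight, were run in limma 3.58.1 under R 4.3.3. The 42006 probes were averaged over spots, 7 having more than 1. Probes were kept where both arrays of a genotype had the sample channel well above background (24522 probes); 19 had an outlier spot and were dropped, so 24503 were tested. The scanner saturated on no spot, and the median sample intensity was 108 to 156 over a local background of 42 to 45. Log2 ratios were fitted with lmFit and eBayes on the 4 ESC arrays, with p-values adjusted by Benjamini and Hochberg at 0.05. A run on simulated ratios checked only that planted sizes were recovered. It held no deviations shared by replicate number, so it gives the calls no support. The number of arrays limits the precision.

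Named probes were the 10 largest rises and 10 largest falls among called probes detected on all 4 arrays, the 5 largest bounds each way among called probes dim in a genotype, the 5 brightest called, and the last called and first not called by p. Gene lists could not be used, since probes carry no gene names. The comparison and its lists were chosen with earlier results of these data known. Replicate numbers are from the titles, which do not say what they mark, so the block is a second analysis. Other alternatives were the normalization, the background correction, the filter, the variance model, all 8 arrays, the deposited table and each array left out.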

Additional observations from a re-analysis of the deposited data

Results flagged for a closer look

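Probe Z00032719-1 moved in opposite directions in the 2 cell types, with every array of one genotype on one side in each. In ESC the difference, lamin B null minus wild type, was -3.17 on the log2 scale. In TE its ratios were -1.10 and -0.64 in lamin B null and -1.31 and -1.37 in wild type, a difference of 0.47, and it was well above background on 2 of the 4 TE arrays. The difference between the cell types was not tested.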

How the results depend on the processing

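The number of calls depended on the processing, and so did the size of differences at some dim probes. With the processed signals the difference of Z00043329-1 was 3.09 rather than 1.33, and that of Z00070180-1 was -5.06 rather than -2.32. That of the bright probe Z00056538-1 was -3.51 rather than -3.60. Against 48 calls, limma gave 1159 with the replicate block, 92 after median centring, 75 without the filter on dim probes, 81 at an adjusted p of 0.10, 10 of 19559 with probes detected on all 4 arrays (2 higher, 8 lower), and 0 with the processed signals or the deposited table (1874 and 1197 probes with a p under 0.05 before adjustment). Leaving out 1 array gave 0 to 138 calls. All 8 arrays gave 37 calls, 29 of them among the 48 and 48.6% lower, the sample channel alone gave 42 calls, 34 of them shared, no background subtraction gave 50 and a trended robust variance 46. With the block, added after the data were seen, median centring gave 1850 calls, the processed signals 0 and no background subtraction 1170. None of the 32 named probes changed direction under any alternative that held it, leaving out 1 array included. They were chosen on these same arrays, so their kept direction is no independent support.

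The share of probes with an interval within 2-fold, 94.8%, was 86.6% with all 8 arrays, 98.5% with the block, 96.0% after median centring, 80.3% with the processed signals and with the deposited table, 90.4% in the sample channel alone, 97.3% without the filter, 93.9% with probes detected on all 4 arrays, and 90.7% to 95.3% with 1 array left out. The gap between the dimmest and brightest bin moved to 0.120 after median centring, and with 10 bins or other definitions of level it was between 0.012 and 0.046. Flagged switches, 1326 on and 21 off, were 1409 and 73 by the flag for a positive and significant signal, 10 and 12 at a bound of 2-fold, 2727 and 8 in the reference channel, and 1352 to 4872 and 36 to 390 with 1 array left out. The median difference was -0.10 without normalization, -0.31 in the unscaled sample channel and -0.063 after median centring, and -0.0088 to 0.017 with 1 array left out. The cause of these moves was not tested. Spike-in scaling was not run, as the spike-in spots (median sample intensity 68.9 to 81.1) stood near the negative controls (64.7 to 72.7). Signal over background limits what can be said of dim probes: 8 of the 18 higher and 13 of the 30 lower calls had the lower genotype at or under a log2 signal of 7.29, the upper edge of the dimmest bin.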
